A study of Mus musculus with 6 samples.

Results

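The genes of the urea cycle and of amino acid catabolism were described in liver RNA of mice with diet-induced non-alcoholic steatohepatitis (NASH) that had received a vector carrying Glrx or a control vector. The list holds 39 genes, picked by their symbols and grouped by branch into the urea cycle, glutamate and the aminotransferases, methionine and cysteine, aromatic amino acids, branched-chain amino acids, histidine, serine and glycine, and proline and lysine. Of these, 36 were analysed among the 27381 genes on the arrays. The other 3 (1 of glutamate metabolism and 2 of serine breakdown) were left out, since the probe annotation used for the gene names did not list them. They may be among the genes without a name here.

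C57BL/6J mice, described in the paper as wild-type males for this diet model, started at 10 weeks of age on a diet with 40% of its energy from palm oil fat, 20% from fructose, and with 2% cholesterol, and stayed on it for 32 weeks. At week 20 each mouse received 1e+12 vector genomes of an adeno-associated virus (AAV) by intraperitoneal injection, and the livers were taken 12 weeks later. AAV-Glrx (AAV-Hep-Glrx) carried tagged mouse Glrx behind the Serpina7 promoter, which is active in hepatocytes, and AAV control (AAV-Hep-control) carried an empty cassette. All mice were thus on the NASH diet and carried a vector, with no chow-fed or uninjected group here. RNA of the 5 or 6 mice of a group was combined into 3 pools, each on 1 Affymetrix mouse array, and the sources used here do not say how the mice were divided among the pools.

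Hepatocytes take the amino group off surplus amino acids and pass the nitrogen, largely by way of glutamate, to the urea cycle, which starts in the mitochondrion and ends in the cytosol. The carbon skeletons go on to glucose, ketone bodies or the citric acid cycle, and methionine also supplies methyl groups and, through cysteine, glutathione. Glutaredoxin-1, the product of Glrx, uses glutathione to remove glutathione from protein thiols. Much of this catabolism is raised in the liver during fasting by glucagon and glucocorticoids, and its enzymes lie mostly in hepatocytes.

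The values are log2 expression per gene, normalized by the authors so that all arrays share the same distribution of probe signals. Array medians lay between 3.893 and 3.949, and Pearson's r across genes was 0.987 to 0.991 between any pair of arrays. Glrx had log2 values of 6.11, 6.03 and 5.66 in AAV control 1, 2 and 3 and of 6.60, 7.77 and 7.24 in AAV-Glrx 1, 2 and 3, so every AAV-Glrx array lay above every control array. The difference was 1.27 (SE 0.27, limma adjusted p = 0.847 over all genes). Hepatocyte markers (11 genes, all above the median level) had a summed log2 level of 14.87 to 14.92 in AAV control and 14.89 to 14.91 in AAV-Glrx. The 6 B cell markers all had lower means in AAV-Glrx, with a summed level of 7.052 to 7.32 against 6.584 to 6.982, and 3 of them lay below the median of all genes. The 9 macrophage markers also all had lower means (summed level 10.32 to 10.76 against 10.19 to 10.45), but groups overlapped in every one of them. Each macrophage marker was also set as a deviation from its own mean over the 6 arrays. The median deviation was 0.29, -0.05 and -0.10 in AAV control and -0.18, 0.14 and 0.01 in AAV-Glrx. AAV control 1 thus stood highest, and the other control arrays lay within the AAV-Glrx range. Of the 6 T cell markers 5 had lower means (summed level 6.885 to 7.249 against 6.772 to 6.921). Groups lay apart in 1 of them, Cd3e (difference -0.30, SE 0.12), which is 16.7% beside 5.38% of all genes. Cd3d and Cd3g, both below the median of all genes, differed by 0.20 (SE 0.10) and -0.01 (SE 0.16). Stellate cell, endothelial cell and cholangiocyte markers went both ways, with 5 of 8, 4 of 7 and 2 of 5 means higher. Groups lay apart below in 1 stellate and 1 endothelial marker (12.5% and 14.3%, beside 5.38% of all genes). They lay apart above in 1 stellate marker (12.5%, beside 5.51%). The part of these cells in the results for catabolic genes was not tested. In whole liver, fewer cells of a type and less RNA per cell cannot be told apart.

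Expression of the amino acid catabolic genes differed little between AAV-Glrx and AAV control livers, and none of the 36 passed the test. The means of 25 genes were lower in AAV-Glrx and those of 11 were higher, which is 69.4% lower against 50.5% of all genes and 47.6% of the genes above the median level. The largest differences were -0.37 for Bhmt and 0.21 for Kmo on the log2 scale. The median difference of the 36 genes was -0.06, against 0.00 for all genes. For 28 of the 36 genes the difference was smaller than 0.15 in size.

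The test was limma's moderated linear model on all genes, in which a gene passed at a Benjamini-Hochberg adjusted p under 0.1. By that rule 0 of the 36 genes passed and 0.00365% of all genes did, which is 1 gene. At an unadjusted p under 0.05, 1 of the 36 (Cth, 2.78%) was lower, beside 3.01% of all genes, and 1 (Kmo, 2.78%) was higher, beside 2.76% of all genes. In 2 genes (Cth and Arg1, 5.56%) all AAV-Glrx arrays lay below all control arrays, beside 5.38% of all genes, and in 1 gene (Kmo, 2.78%) they lay above, beside 5.51%. These shares of 1 or 2 genes are near the background. The standard errors ran from 0.08 to 0.20 and the adjusted p from 0.847 to 0.995. The 95% intervals reached from -0.83 to 0.42 at their widest, and for 29 of the 36 genes the whole interval lay within 0.5 of 0. With 3 pools against 3, the smallest two-sided exact permutation p for a single gene is 0.1.

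**Figure D1:**
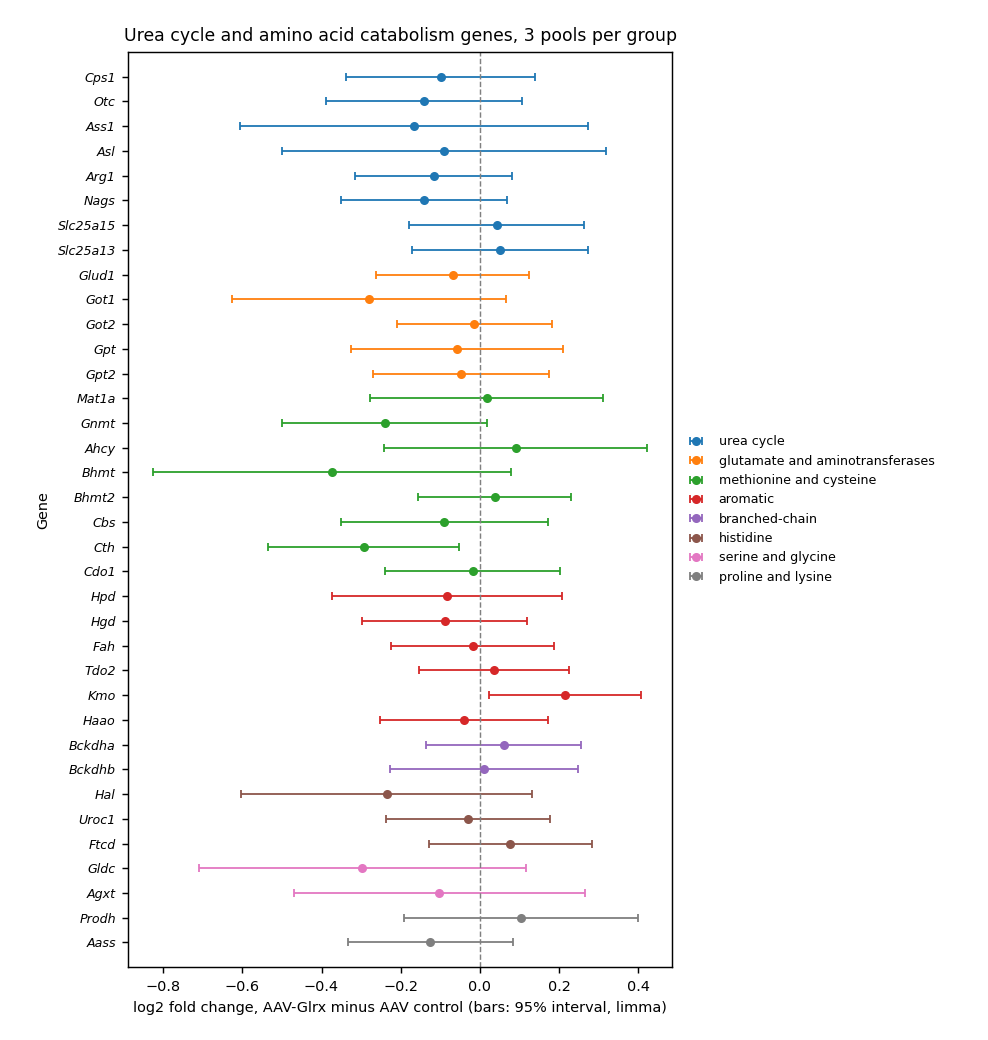
Log2 fold change (AAV-Glrx minus AAV control) of each of the 36 genes on the horizontal axis, colored by branch. Points are limma estimates from 3 pools per group and bars are 95% intervals. Of the intervals, 34 include 0, and the other two are those of Cth, below 0, and Kmo, above 0.

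Among the urea cycle genes, 6 of 8 had a lower mean in AAV-Glrx and none passed the test, with a median difference of -0.11. Cps1, carbamoyl phosphate synthetase 1, brings ammonia into the cycle. Its log2 values were 11.15, 11.02 and 10.96 in the control arrays and 10.89, 10.86 and 11.09 in the AAV-Glrx arrays. The groups overlapped through AAV-Glrx 3, and the difference was -0.10 (SE 0.10, adjusted p = 0.919), between -0.17 without AAV-Glrx 3 and -0.05 without AAV control 1. Otc, ornithine transcarbamylase, makes citrulline in the mitochondrion and had values of 9.47, 9.33 and 9.18 in AAV control against 9.28, 9.08 and 9.20 in AAV-Glrx (difference -0.14, SE 0.11, adjusted p = 0.899). AAV control 1 was the highest and AAV-Glrx 2 the lowest array for both genes, and without AAV control 1 the Otc difference was -0.07.

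Arg1, arginase, which releases urea from arginine, was the only gene of the cycle whose groups did not overlap. It had 8.998, 9.064 and 8.958 in AAV control and 8.910, 8.811 and 8.948 in AAV-Glrx. The highest AAV-Glrx array and the lowest control array (both of the pools numbered 3) nearly touched, and the difference was -0.12 (SE 0.09, adjusted p = 0.899). Nags makes N-acetylglutamate, the activator that Cps1 requires. Its values were 6.97, 6.87 and 6.84 in AAV control and 6.74, 6.85 and 6.67 in AAV-Glrx, a difference of -0.14 (SE 0.09, adjusted p = 0.880). Only AAV-Glrx 2 reached into the control range.

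Ass1 and Asl, argininosuccinate synthase and lyase, form arginine in the cytosol, and for each of them a single control array set the sign. For Ass1 the values were 4.27, 4.21 and 4.95 in AAV control against 4.29, 4.28 and 4.36 in AAV-Glrx. AAV control 3 stood above the other 5 arrays, and the difference of -0.17 (SE 0.19) became 0.07 without it. For Asl the values were 7.33, 8.03 and 7.48 against 7.65, 7.43 and 7.49. Here AAV control 2 was the highest of the 6 arrays, and the difference of -0.09 (SE 0.18) became 0.12 without it. Ass1 lay near the median of all genes (mean log2 level 4.39, median 3.93), where a fold change can be understated. Whether its probes report the gene well at this level was not tested. The mitochondrial carriers Slc25a15, which exchanges ornithine and citrulline, and Slc25a13, which carries aspartate out, differed by 0.04 and 0.05 (each SE 0.10).

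Each of the 8 urea cycle genes was also set as a deviation from its own mean, and the median deviation per array was 0.08, 0.04 and -0.01 in AAV control and -0.03, -0.13 and -0.03 in AAV-Glrx. The groups did not overlap in this median, although AAV control 3 and both AAV-Glrx 1 and AAV-Glrx 3 lay close together. For single genes, groups lay apart below in 5.38% and above in 5.51% of all genes. No such share is given here for medians over several genes, so this separation cannot be read against a background. In each of the other branches of the list the groups overlapped in the same median, and so they did over 6 further urea cycle genes (-0.07 to 0.13 in AAV control and -0.04 to -0.03 in AAV-Glrx). All 6 of these further genes had a lower mean in AAV-Glrx, with a median difference of -0.06. In 2 of them (33.3%, beside 5.38% of all genes) all AAV-Glrx arrays lay below all control arrays. Over all 36 genes the median deviations were 0.00, 0.06 and 0.01 against -0.01, -0.07 and 0.00, and those groups overlapped.

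**Figure D2:**
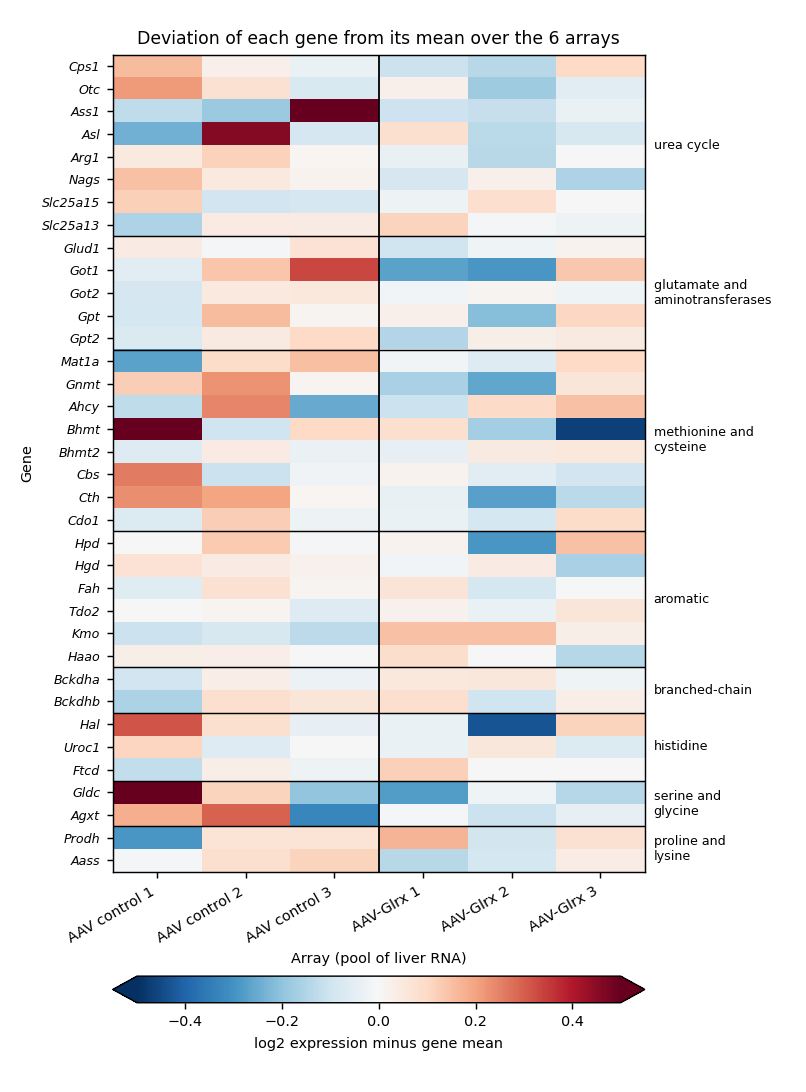
Log2 expression of each gene (rows, by branch) minus that gene's mean over the 6 arrays, for the 3 AAV control and 3 AAV-Glrx arrays (columns). Red is above and blue below the gene's mean, and colors stop at 0.5. AAV-Glrx 2 is the lowest of the 6 arrays for 11 genes, and AAV control 1 is the highest for 11 and the lowest for 9.

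The arrays did not move as blocks. AAV control 1 was the highest of the 6 arrays for 11 of the 36 genes and the lowest for 9. Against the mean of the other control arrays it lay 0.58 higher for Gldc and 0.56 higher for Bhmt, while the difference was -0.43 for Asl and -0.39 for Mat1a. AAV-Glrx 2 was the lowest of all 6 arrays for 11 genes and the highest for 2.

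Glutamate links the aminotransferases to the urea cycle, and all 5 analysed genes of this branch had a lower mean in AAV-Glrx, with a median difference of -0.06. Got1, the cytosolic aspartate aminotransferase, had the largest difference. Its values were 8.32, 8.52 and 8.71 in AAV control and 8.11, 8.09 and 8.51 in AAV-Glrx. AAV-Glrx 1 and 2 lay below all controls, and AAV-Glrx 3 was within the control range. The difference was -0.28 (SE 0.15, limma adjusted p = 0.866). The mitochondrial aspartate aminotransferase Got2 differed by -0.01 (SE 0.08). The alanine aminotransferases Gpt and Gpt2 differed by -0.06 and -0.05, and Glud1, glutamate dehydrogenase, which frees ammonia from glutamate, by -0.07 (SE 0.08). Groups overlapped for all 5 genes. Of 5 further measured genes of this branch, outside the list, 4 had a higher mean (median 0.08). Their median deviation per array was -0.13 to 0.01 in AAV control and 0.03 to 0.10 in AAV-Glrx, without overlap. No background share is given here for such medians either.

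Methionine is activated, used as a methyl donor and then either remade from homocysteine or turned into cysteine, and of the 8 genes of this branch 5 had a lower mean in AAV-Glrx (median -0.06). Cth, cystathionine gamma-lyase, which releases cysteine from cystathionine, had the smallest p of all 36 genes. Its values were 7.91, 7.87 and 7.69 in AAV control and 7.64, 7.41 and 7.54 in AAV-Glrx. Every AAV-Glrx array was below every control array, with AAV-Glrx 1 just under AAV control 3. The means were 7.82 ± 0.12 and 7.53 ± 0.12 (SD, n = 3 pools), and AAV-Glrx was 0.816 times the control on the linear scale. The difference was -0.29 (SE 0.10, 95% interval -0.53 to -0.05, limma adjusted p = 0.847). Left out in turn, each array gave a difference between -0.36 and -0.23, and the unadjusted p was then above 0.05 without AAV control 1, AAV control 2 or AAV-Glrx 2. Cbs, cystathionine beta-synthase, which acts just before Cth, differed by -0.09 (SE 0.11), and Cdo1, cysteine dioxygenase, by -0.02 (SE 0.10).

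Gnmt, glycine N-methyltransferase, spends surplus methyl groups of S-adenosylmethionine on glycine. It had 8.49, 8.59 and 8.38 in AAV control against 8.21, 8.11 and 8.43 in AAV-Glrx. AAV-Glrx 1 and 2 were below all controls and AAV-Glrx 3 was above AAV control 3. The difference was -0.24 (SE 0.11, limma adjusted p = 0.858).

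Bhmt, which remakes methionine from homocysteine with betaine, had 6.38, 5.72 and 5.92 in AAV control and 5.90, 5.65 and 5.36 in AAV-Glrx. The highest array was AAV control 1 and the lowest AAV-Glrx 3, with overlap between them. The difference was -0.37 (SE 0.20, limma adjusted p = 0.866), and -0.19 without AAV control 1. Its relative Bhmt2 differed by 0.04 (SE 0.08). Mat1a, the liver enzyme that makes S-adenosylmethionine, differed by 0.02 (SE 0.13), and Ahcy, which splits S-adenosylhomocysteine, by 0.09 (SE 0.14). With array weights Mat1a turned to -0.01. Ahcy, like Ass1, lay near the median of all genes, with a mean log2 level of 4.18.

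**Figure D3:**
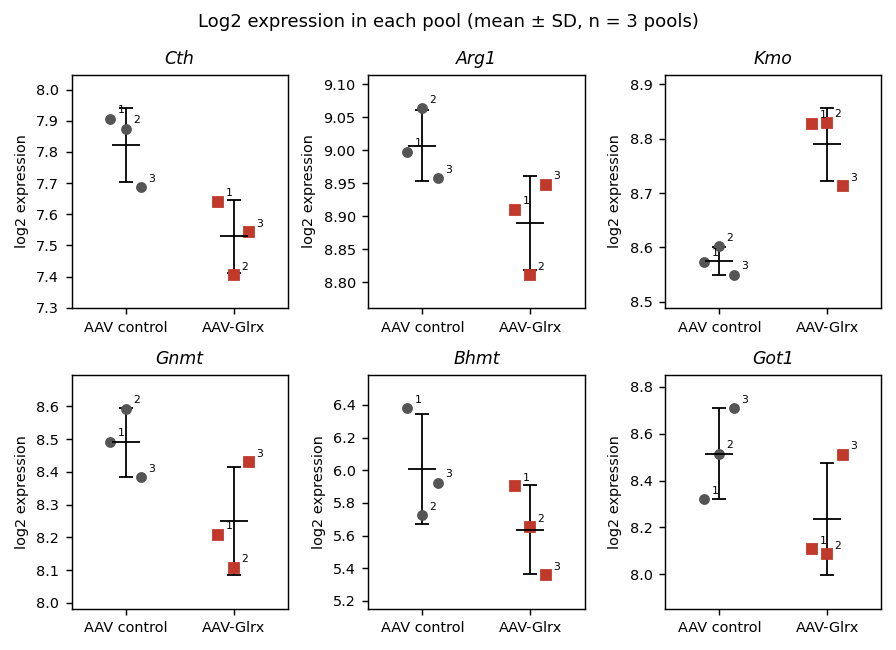
Log2 expression of 6 genes in each pool (points with replicate numbers, grey circles for AAV control and red squares for AAV-Glrx), with mean and SD (n = 3 pools). Vertical axes differ between panels and do not start at 0. The groups are apart for Cth, Arg1 and Kmo, and overlap for Gnmt, Bhmt and Got1.

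Tyrosine and tryptophan are broken down by the 6 genes of the aromatic branch, of which 4 had a lower mean (median -0.03). Kmo, kynurenine 3-monooxygenase, hydroxylates kynurenine in tryptophan breakdown. It had 8.57, 8.60 and 8.55 in AAV control and 8.83, 8.83 and 8.71 in AAV-Glrx, so the groups were apart and the control arrays lay close together. The means were 8.58 ± 0.03 and 8.79 ± 0.07 (SD, n = 3 pools), a ratio of 1.16. The difference was 0.21 (SE 0.08, 95% interval 0.02 to 0.41, limma adjusted p = 0.847). It lay between 0.19 and 0.25 with each array left out, and its unadjusted p was then above 0.05 without any array but AAV-Glrx 3. Arrays were also centred on the middle level of the hepatocyte markers, which was not the same marker in every array. That lowered the median of all genes to -0.08, and the Kmo difference was then 0.14, with an unadjusted p above 0.05.

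Other enzymes of the tryptophan pathway differed in direction. Tdo2, tryptophan 2,3-dioxygenase, which opens the tryptophan ring, differed by 0.04 (SE 0.08). Haao, which acts later in the pathway than Kmo, differed by -0.04 (SE 0.09). Outside the list, and named after their values were seen, Ido1 and Ido2, which open the same ring as Tdo2, differed by 0.19 (SE 0.10) and 0.14 (SE 0.11), and Kynu, which acts between Kmo and Haao, by -0.14 (SE 0.12). The groups lay apart for Ido1, above the controls, and overlapped for the others. The tyrosine enzymes Hpd, Hgd and Fah, which act in that order on the way to fumarate and acetoacetate, differed by -0.08, -0.09 and -0.02. AAV-Glrx 2 was the lowest array for Hpd and AAV-Glrx 3 the lowest for Hgd.

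Bckdha and Bckdhb encode subunits of the dehydrogenase that commits branched-chain amino acids to breakdown, and differed by 0.06 (SE 0.08) and 0.01 (SE 0.10). Of the histidine enzymes, Hal, histidine ammonia-lyase, which takes the first step, had 8.41, 8.17 and 8.05 in AAV control and 8.06, 7.66 and 8.21 in AAV-Glrx. The groups overlapped, with AAV-Glrx 2 below all other arrays, and the difference was -0.24 (SE 0.16, limma adjusted p = 0.892), with -0.08 without AAV-Glrx 2 and -0.14 without AAV control 1. Uroc1 and Ftcd, which act later in the same pathway, differed by -0.03 and 0.08 (each SE 0.09).

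Gldc, the decarboxylase of the glycine cleavage system, had 7.38, 6.95 and 6.65 in AAV control and 6.57, 6.82 and 6.70 in AAV-Glrx. The control arrays spread over most of the range, and AAV control 3 lay inside the AAV-Glrx values. The difference was -0.30 (SE 0.18, limma adjusted p = 0.879), and it was -0.11 without AAV control 1 and -0.47 without AAV control 3. Agxt, which turns glyoxylate into glycine in the peroxisome, had 6.50, 6.61 and 5.99 in AAV control and 6.31, 6.21 and 6.27 in AAV-Glrx. AAV control 3 was the lowest of the 6 arrays, and the difference was -0.10 (SE 0.16). Prodh, proline dehydrogenase, differed by 0.10 (SE 0.13), and Aass, the first enzyme of lysine breakdown by saccharopine, by -0.13 (SE 0.09).

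Other genes of amino acid catabolism gave a reference for these values. Of 83 measured genes of the same pathways (of 90 listed), 40 had a lower and 43 a higher mean in AAV-Glrx, with a median of 0.02, and none passed the test. At an unadjusted p under 0.05, 1 was lower and 1 was higher (each 1.2%, beside 3.01% and 2.76% of all genes). Groups lay apart in 6 genes below and in 8 above (7.23% and 9.64%, beside 5.38% and 5.51% of all genes). Tat, tyrosine aminotransferase, which starts tyrosine breakdown and is a classical glucocorticoid target, had 11.31, 10.98 and 11.02 in AAV control and 10.66, 10.75 and 10.49 in AAV-Glrx. The groups were apart, and the difference was -0.47 (SE 0.12, limma adjusted p = 0.847). It stayed between -0.53 and -0.36 with each array left out. Tat was also on the list of hepatocyte markers.

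Hao1, the peroxisomal oxidase that makes the glyoxylate used by Agxt, had 7.63, 7.50 and 7.64 against 7.83, 8.01 and 7.87. All AAV-Glrx arrays were above the controls (difference 0.31, SE 0.09, limma adjusted p = 0.847). Sqor, which oxidizes the hydrogen sulfide that Cth can produce, differed by -0.19 (SE 0.08), and Hibch, an enzyme of valine breakdown, by 0.21 (SE 0.09). Groups did not overlap in either gene.

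Amino acid transporters were evenly divided, with 11 lower and 11 higher means among 22 and a median of 0.00. None had an unadjusted p under 0.05 and none had groups that lay apart. The smallest p belonged to Slc7a2, a carrier of arginine and other cationic amino acids (difference -0.25, SE 0.13). Slc7a5 differed by 0.17, Slc38a3, a glutamine carrier, by 0.13, and Slc7a1 by -0.14.

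Among 14 measured regulators of these pathways, 6 had a lower and 8 a higher mean, and 2 (14.3%, beside 3.01% of all genes) had an unadjusted p under 0.05, both lower. Groups lay apart in these 2, below (beside 5.38% of all genes), and in 1, Cebpa, above (7.14%, beside 5.51%). Klf15, a transcription factor that induces amino acid catabolic genes in fasting, had 7.18, 7.21 and 7.17 in AAV control and 7.03, 6.87 and 6.59 in AAV-Glrx. The control arrays were close together and every AAV-Glrx array lay below them (difference -0.35, SE 0.12, limma adjusted p = 0.847). Without AAV-Glrx 3 the difference was -0.23. Cebpb, a leucine zipper factor that acts in gluconeogenesis and the acute phase response, had 6.45, 6.75 and 6.64 against 6.22, 6.38 and 6.31. These groups were apart too (difference -0.31, SE 0.10, limma adjusted p = 0.847), and stayed between -0.39 and -0.24 with each array left out. Cebpa, its relative, differed by 0.19 (SE 0.09), and Nr1h4, the bile acid receptor, by 0.23 (SE 0.11).

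**Figure D4:**
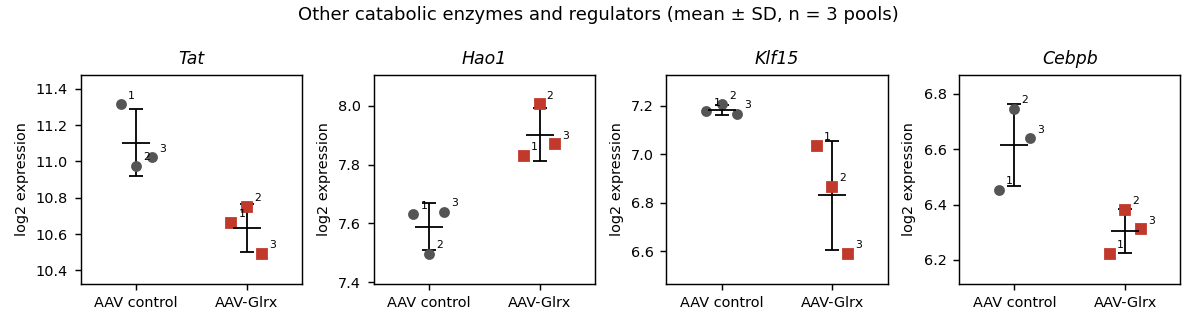
Log2 expression of Tat, Hao1, Klf15 and Cebpb in each pool (points with replicate numbers, grey circles for AAV control and red squares for AAV-Glrx), with mean and SD (n = 3 pools). Vertical axes differ between panels and do not start at 0. Tat, Klf15 and Cebpb are lower and Hao1 is higher in every AAV-Glrx pool than in any control pool, and none passed after adjustment.

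The sequence before the transcription start was searched for the letters of sites that regulators of this kind bind. RefSeq windows (GRCm38.p6) of the 250 bases before the start were found for 29 of the 36 genes, in 31 windows, and 7 motifs were searched on both strands. The C/EBP motif TTNNGCAA was in 9.68% of the 31 windows (Aass, Hal and Hgd) and in 9.56% of 32851 windows of all genes. The KLF motif CACCC was in 58.1% against 52.0%, and the CREB core TGACG in 9.68% against 17.8%. The C/EBP-ATF motif TGATGNAA was in 3.23% against 3.45%. The nuclear receptor core AGGTCA was in 38.7% of the windows, those of 12 genes, against 14.0% of all windows. The core of the glucocorticoid receptor motif, ACANNNTGT, was in 12.9% of the 31 windows (Bckdhb, Bhmt, Hal and Tdo2) against 5.84%. The HNF4 motif CAAAGTCCA was in none of the 31 windows and in 0.384% of all windows. No motif holds another in full. These are matches of letters, not sites shown to be bound. Shown are the windows of the 4 genes nearest to passing the test that had an entry, 5′ to 3′ along the gene's strand and ending just before the start. Capitals mark a match to any of the 7 motifs.
Kmo (GRCm38.p6, chr1:175631943-175632192, plus strand): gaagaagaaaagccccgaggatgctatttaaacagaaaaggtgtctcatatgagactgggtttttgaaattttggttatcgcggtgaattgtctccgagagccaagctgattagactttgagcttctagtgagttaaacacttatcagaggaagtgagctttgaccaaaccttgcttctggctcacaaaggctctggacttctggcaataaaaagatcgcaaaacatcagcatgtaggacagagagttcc
Gnmt (GRCm38.p6, chr17:46729166-46729415, minus strand): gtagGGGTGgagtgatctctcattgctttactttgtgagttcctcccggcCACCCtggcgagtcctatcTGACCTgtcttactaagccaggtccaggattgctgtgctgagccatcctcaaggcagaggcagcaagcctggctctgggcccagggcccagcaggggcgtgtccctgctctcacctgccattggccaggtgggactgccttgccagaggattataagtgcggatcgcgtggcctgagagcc
Bhmt (GRCm38.p6, chr13:93637759-93638008, minus strand): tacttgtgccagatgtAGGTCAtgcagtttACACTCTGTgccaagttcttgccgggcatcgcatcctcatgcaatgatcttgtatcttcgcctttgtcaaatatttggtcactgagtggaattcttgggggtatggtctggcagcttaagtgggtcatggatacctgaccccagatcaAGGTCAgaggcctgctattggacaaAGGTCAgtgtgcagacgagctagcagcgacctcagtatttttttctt
Got1 (GRCm38.p6, chr19:43524606-43524855, minus strand): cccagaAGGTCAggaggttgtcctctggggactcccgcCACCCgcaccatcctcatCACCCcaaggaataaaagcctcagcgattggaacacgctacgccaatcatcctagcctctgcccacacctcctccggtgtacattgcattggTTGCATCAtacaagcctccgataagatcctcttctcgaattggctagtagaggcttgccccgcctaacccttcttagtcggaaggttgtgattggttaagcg
The Kmo window held none of the 7. The Bhmt window held AGGTCA 3 times, beginning 234, 72 and 47 bases before the start, and the glucocorticoid receptor core once, beginning 220 bases before it. The Gnmt window held the nuclear receptor core on the other strand, beginning 181 bases before the start, and a CACCC box on each strand. The Got1 window was the only 1 of the 31 with the C/EBP-ATF motif, read on the other strand as TTGCATCA and beginning 102 bases before the start, and it also held AGGTCA and CACCC.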

How the data were processed

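The authors deposited 1 log2 expression value per Entrez gene, made with the Robust Multiarray Average. Per the submitters' processing notes this was done in R 3.6.0 with affy 1.61.0, and the paper names Brainarray 24.0.0 probe definitions, of a genome build not given in the sources used here. The method equalizes the distribution of probe signals between arrays, so a shift shared by most genes is removed. Symbols came from the platform annotation (26794 genes named, 587 unnamed here). The deposited log2 values were used with no filter. Groups and replicate numbers came from the labels. The fit used lmFit and eBayes (limma 3.58.1, R 4.3.3) without covariates, with Benjamini-Hochberg adjustment over 27381 genes, a threshold of 0.1 and 7.79 fitted degrees of freedom. Precision is limited by the number of arrays, and p-values measure the spread between pools, each of which may hold 1 or several mice. Batches could not be tested, since no source used here gives hybridization dates.

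All analysed genes of the list are named. Of the other catabolic genes, the transporters and the regulators, the 4 with the smallest p are named. The genes, lists and tests were chosen with earlier results of these data known. Promoter windows came from the RefSeq table, and the letters searched were chosen by hand. Alternatives were an intensity trend, a robust prior, median centring, quantile normalization again, centring on hepatocyte markers, genes above the median level, array weights, a block for the replicate number and leaving out each array. On simulated data for this comparison (27381 genes, 200 changed, 5 runs), the test recovered 31.6% of genes that differed by 0.5 on the log2 scale, 78.0% of those that differed by 1 and 96.8% of those that differed by 2. It made 13.4 false calls on average. Genes there varied independently. With 200 changed genes, a given p passes the adjustment more easily than in these data, where 1 gene passed. The recovered shares therefore do not give the power of the test here, where Glrx differed by 1.27 and did not pass.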

Additional observations from a re-analysis of the deposited data

How the results depend on the processing

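No gene of the list passed the adjusted threshold under any of the 14 alternatives, and the smallest adjusted p of any of them was 0.673. The median difference of the 36 genes was below 0 under every alternative, from -0.08 to -0.04 with each array left out (-0.06 with all). Centring on the hepatocyte markers gave -0.14, with the median of all genes at -0.08. The other catabolic genes then had a median of -0.059, and of -0.026 to 0.025 with each array left out (-0.026 without AAV control 1). The centring subtracted the middle level of the 11 markers, which was Tat in AAV control 1 (11.31), Cyp2e1 in AAV-Glrx 2 (11.51) and Apoa2 in the others. Its shift thus depended on which marker held the middle rank. As deviations from each marker's own mean, the marker medians were 0.014, 0.013 and -0.035 in AAV control and -0.009, 0.012 and 0.004 in AAV-Glrx. That centring also gave 3 genes lower and 0 higher at an unadjusted p under 0.05, and 0 with all AAV-Glrx arrays above the controls. The intensity trend gave 2 lower, and median centring gave 2 with groups apart above. Replicate numbers did not pair the arrays (r of deviations -0.04, -0.17 and 0.02 for the same number), and the fit with the replicate number as a block gave 3 lower and 0 higher and left the number past the adjusted threshold at 0. With each array left out, 0 to 3 genes were lower (0 without AAV-Glrx 2, 2 without AAV-Glrx 1, and 3 without AAV control 3 or without AAV-Glrx 3) and 0 to 1 higher (1 without AAV-Glrx 3 and 0 without any of the others). Groups then lay apart, 2 against 3, in 3 to 7 genes below and 2 to 4 above. Groups of fewer arrays lie apart more easily in any gene. Shares of all genes under the alternatives are not given here, so none of these counts can be read against a background.

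The sign held for 19 of the 36 genes under the alternatives other than centring on the hepatocyte markers. That centring lowered all genes by the same amount (-0.07), and the 7 genes it turned all stayed above the median of all genes, namely Slc25a15 (-0.032), Slc25a13 (-0.024), Mat1a (-0.057), Bhmt2 (-0.037), Tdo2 (-0.039), Bckdha (-0.015) and Bckdhb (-0.063). Median centring turned Got2 (0.002) and array weights turned Mat1a (-0.005). Leaving out single arrays turned Ass1 (-0.301 to 0.073), Asl (-0.233 to 0.116), Slc25a13 (-0.015 to 0.083), Got2 (-0.059 to 0.009), Gpt (-0.123 to 0.035), Gpt2 (-0.095 to 0.014), Mat1a (-0.113 to 0.097), Ahcy (-0.013 to 0.235), Cbs (-0.166 to 0.016), Cdo1 (-0.070 to 0.037), Hpd (-0.178 to 0.042), Fah (-0.055 to 0.021), Haao (-0.093 to 0.023), Bckdhb (-0.065 to 0.063), Uroc1 (-0.070 to 0.016), Agxt (-0.291 to 0.020) and Prodh (-0.016 to 0.175). The cause was not tested. No sign of the named genes outside the list turned.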
